A study of Danio rerio with 12 samples.

Results

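The extracellular matrix is the network of collagens, glycoproteins and proteoglycans that cells secrete around themselves. In the paraxial mesoderm of vertebrate embryos, fibronectin is laid down along the borders of the forming somites, and basement membrane laminins surround the notochord and the segmented tissue. Enzymes then hydroxylate, crosslink and cut these proteins, so synthesis, assembly and turnover of matrix involve different gene families. The rule for picking genes was set with earlier results of these data known. The genes described here were picked by name: every probe set with a single gene symbol that begins with one of a fixed set of matrix names (collagens, laminins, fibronectins, fibulins, thrombospondins, lysyl oxidases, matrix metalloproteinases and others). They comprise 68 genes of the 8793 with a single symbol, on 84 probe sets, and of several probe sets for a gene the one with the highest mean signal was used.

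All samples came from wild-type zebrafish (*Danio rerio*) embryos of the AB line, raised at 23 °C to the 12-somite stage. Tissue was cut by hand at 6 positions along the paraxial mesoderm: the center of the tailbud (position 1), its flank (position 2), the presomitic mesoderm (PSM) at its posterior, center and anterior (positions 3, 4 and 5) and the last 2 somites formed (position 6). There are 2 arrays at every position, labelled as biological replicates; at position 2, replicate 1 is the left flank and replicate 2 the right. The number of embryos per sample is not stated in the labels, and p-values measure only the spread between these samples.

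The deposited value of a probe set is its signal, a fluorescence intensity on a linear scale. Array medians ran from 27.3 to 68.4, with the 2 somite arrays lowest. Summed marker signals followed the labels. The 8 tailbud and posterior PSM markers summed to 17291 to 18993 at position 1 and 2066 to 3330 at position 6. The 7 anterior PSM and somite markers summed to 491 to 663 and 7695 to 7958. By the trend defined below, 6 of the 8 were called lower toward the somites and 1 higher. Of the 7, 5 were called higher (7.1% of all probe sets were called higher and 6.12% lower). Replicate 2 of the tailbud center stood apart: 6 notochord markers that no other list holds summed to 2595 there and to 74.1 on replicate 1, and 14 neural tube markers to 2855 and 634. Matrix gene calls were also made without this array, and calls lost are given singly or within a count of refits. For marker genes and genes of other lists, calls without it were not examined. The signals were compared as log2 of the signal plus 12.2, in one limma model of all 12 arrays. Probe sets with a low mean on that scale were not tested, which left 45 of the 68 matrix genes. A gene is called where its adjusted p (Benjamini-Hochberg) is under 0.05, and only called genes are said to rise or fall. The trend is the fitted log2 change from position 1 to position 6, positive where the signal is higher in the somites.

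Matrix genes changed in both directions along the axis. A difference among the positions was called for 16 of the 45 tested genes, or 35.6% of them, where 11.2% of all 10851 tested probe sets were called. By the linear trend 14 of the 45 were called, against 13.2% of all probe sets. Of these 14 genes, 8 were higher toward the somites (7.1% of all probe sets) and 6 lower (6.12%); the split was 10 to 5 under quantile normalization and 11 to 4 under median centring. The median trend of the 45 genes was -0.03, close to the -0.13 of all probe sets, while the median of the absolute trend was 0.96 against 0.46. The medians of the signed trend were 0.18 and 0.00 under quantile normalization and 0.34 and 0.24 under median centring. In whole pieces of tissue, fewer cells of a type and less RNA per cell cannot be told apart, so each change is one of signal per piece.

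**Figure D1:**
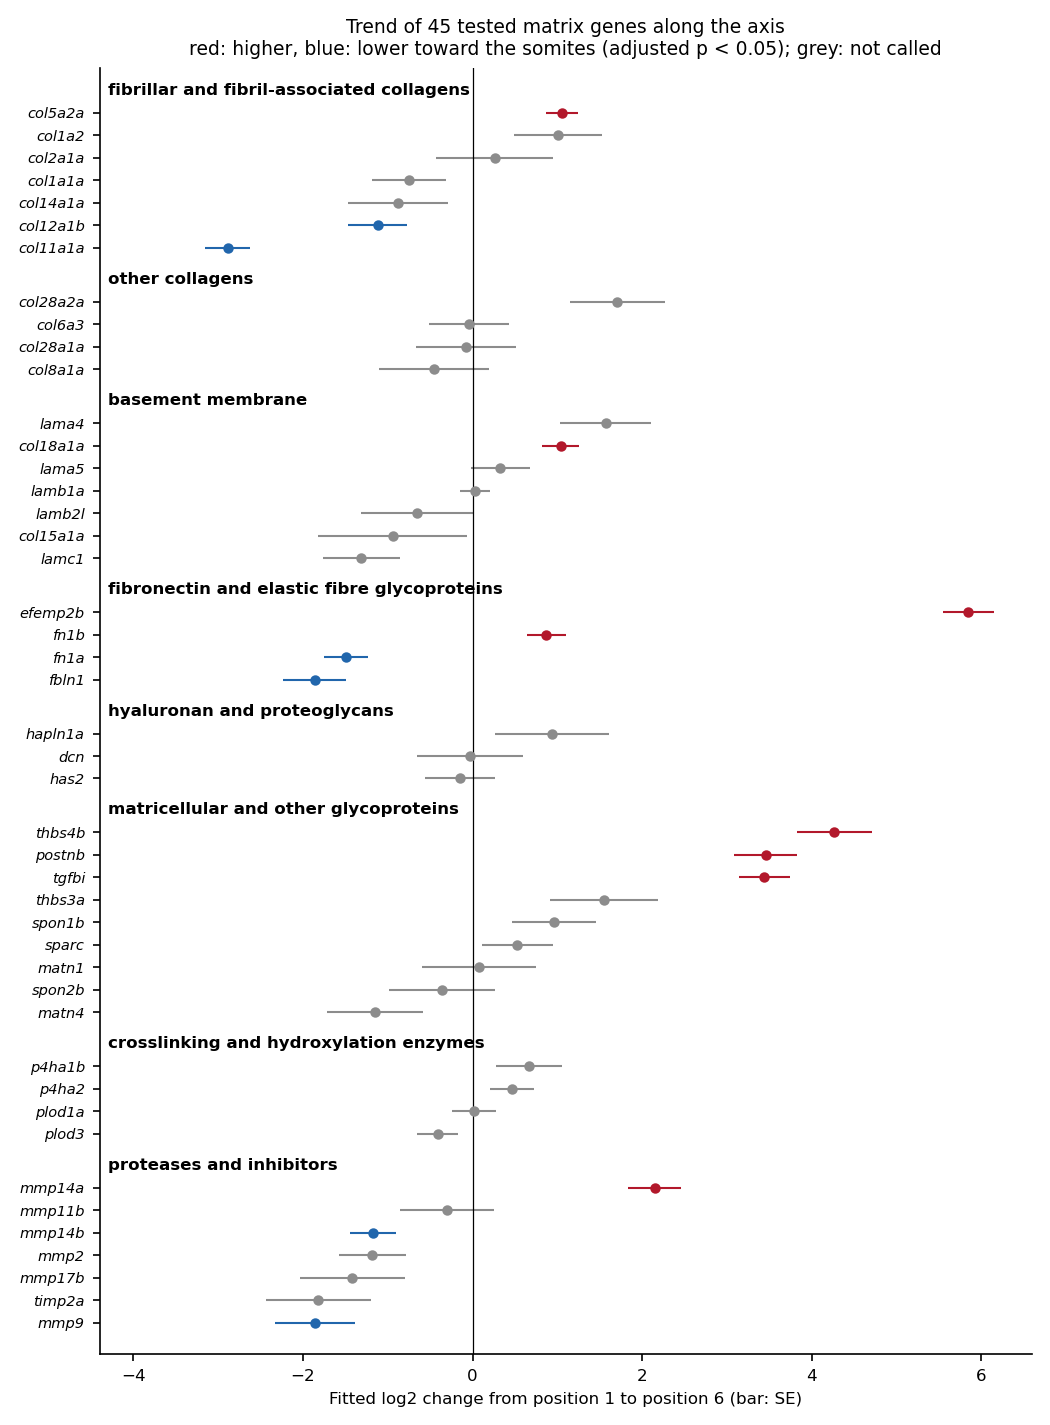
Fitted log2 change from position 1 to position 6 (x axis, point) with its SE (bar) for the 45 tested matrix genes, grouped by role. The 8 genes in red were called higher toward the somites and the 6 in blue lower; *efemp2b*, at 5.85, lies furthest from 0.

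Among the glycoproteins of fibronectin fibres and elastic fibres, all 4 members were tested, and all 4 were called by the trend, 2 in each direction. Of all probe sets, 7.1% were called higher and 6.12% lower. *efemp2b* encodes a fibulin-4, a protein needed in mice to assemble elastic fibres and to bring lysyl oxidase to them. Its signal in replicates 1 and 2 was 28.4 and 47.7 at position 1, 123 and 50.5 at position 2 and 397 and 226 at position 3. It went on to 977 and 563 at position 4, 2011 and 1589 at position 5 and 2286 and 1769.6 at position 6. Each position had a higher mean than the one before it, and from position 3 on every array lay above all arrays of positions 1 and 2. The fitted change was 5.85 ± 0.30 (SE, adjusted p = 6.83e-11), a 57.6-fold rise on the log2 scale with the offset, although no single step between neighbours was called. *fbln1*, another fibulin, took a different course. It measured 73.9 and 172 at position 1, 181 and 241 at position 2 and 218 and 347 at position 3. Anterior to these it measured 122 and 225 at position 4, 70.9 and 70.1 at position 5 and 34 and 24.1 at position 6. The posterior PSM was its highest position and the somites its lowest, with both somite arrays below all 10 others. Its trend was -1.86 ± 0.37 (SE, adjusted p = 0.00181). Position 6 against position 1 gave -1.62 ± 0.44 (SE, adjusted p = 0.0229). This direct difference was not called under quantile normalization (-1.24, adjusted p = 0.105), median centring (-1.28, adjusted p = 0.0931) or the mean over probe sets (-1.28, adjusted p = 0.238). It was also not called without the intensity trend in the variances (adjusted p = 0.0793). The same held without replicate 2 of position 1 (-1.07) or without either somite array (-1.79 and -1.44). Its other probe set was below the filter.

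The 2 fibronectin genes moved in opposite directions. Fibronectin is the fibril protein that integrins bind and assemble around the forming somites, and zebrafish carry the paralogs *fn1a* and *fn1b*. *fn1a* measured 339.5 and 567 at position 1, 467 and 454 at position 2 and 397 and 412 at position 3. It then measured 268 and 175 at position 4, 209.8 and 216 at position 5 and 135 and 226 at position 6. All 6 arrays of positions 1 to 3 lay above all 6 of positions 4 to 6, and the trend was -1.49 ± 0.26 (SE, adjusted p = 0.000483). *fn1b* measured 794 and 1046 at position 1, 905 and 869 at position 2 and 1103 and 1009.6 at position 3. Its later values were 1650.3 and 896 at position 4, 1359 and 1644 at position 5 and 1967 and 1167 at position 6. The 2 arrays of position 4 and those of position 6 lay far apart, and the groups overlapped. The trend of *fn1b* was 0.87 ± 0.23 (SE, adjusted p = 0.0141), while its test for any difference among the positions was not called (adjusted p = 0.157). Without replicate 1 of position 1 the *fn1b* trend was 0.73 (adjusted p = 0.0875), and without replicate 1 of position 6 it was 0.60 (adjusted p = 0.143). *fn1a* has 2 other tested probe sets, with trends of -1.39 (adjusted p = 0.0578) and -0.04 (adjusted p = 0.978), and the mean over its probe sets changed by -0.97 with no call (adjusted p = 0.128). Neither the levels nor the trends of the 2 paralogs were tested against each other.

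**Figure D2:**
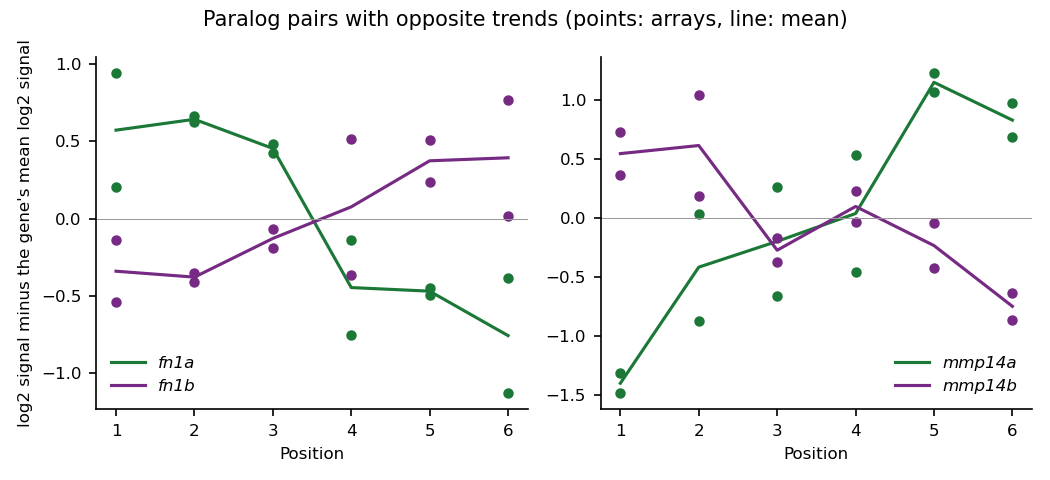
Log2 signal of the paralogs *fn1a* and *fn1b* (left) and *mmp14a* and *mmp14b* (right), each centred on the gene's own mean over the 12 arrays, against position (points are arrays, lines are means). In each pair one gene was called higher and the other lower toward the somites.

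Matricellular glycoproteins sit in the matrix and bind cells and fibres rather than forming fibres themselves. The group of matricellular and other glycoproteins, which also holds matrilins and a vitronectin, had 3 of the 4 largest rises. Of 13 members 9 were tested, 3 rose along the trend and 0 fell with limma (7.1% and 6.12% of all probe sets). An unadjusted p under 0.05 was found for 4 of the 9. *thbs4b* encodes a thrombospondin-4, which in zebrafish is deposited where muscle fibres attach to the somite borders. Its signal was 30.6 and 39.1 at position 1, 4.2 and 8.6 at position 2 and 20.3 and 99 at position 3. It reached 123 and 85.2 at position 4, 266 and 368 at position 5 and 409.8 and 498 at position 6. From the center PSM forward the 6 arrays ranked by position without overlap between neighbours, and the fitted change was 4.27 ± 0.44 (SE, adjusted p = 1.14e-06). The flank arrays were the lowest of all 12, below those of the tailbud center.

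*tgfbi* and *postnb* encode related secreted proteins with fasciclin domains that bind collagens and integrins, and the step that was called was the last for *tgfbi* and the first for *postnb*. *tgfbi* measured 53.1 and 72.9 at position 1, 101 and 57.5 at position 2 and 104 and 166 at position 3. It measured 115 and 106 at position 4, 173 and 199.8 at position 5 and 1444 and 1221 in the somites, where both arrays lay far above the 10 others. The step from the anterior PSM to the somites was 2.76 ± 0.35 (SE, adjusted p = 0.000402), a 6.77-fold rise, where 1.21% of all probe sets were called at that step. It was the single matrix gene called there, with 8 of the 45 at an unadjusted p under 0.05. *postnb*, a periostin, was near the bottom of the scale in the tailbud center, at 1.1 and 6.9. It measured 78.2 and 179.9 on the flank, 282 and 195 at position 3, 263 and 434 at position 4, 132 and 161 at position 5 and 264 and 518 at position 6. All 10 arrays beyond position 1 lay above its 2 arrays, with a lower mean in the anterior PSM than on either side of it. The first step was 3.05 ± 0.44 (SE, adjusted p = 0.00125), and position 6 against position 1 gave 4.59 ± 0.44 (SE, adjusted p = 6.6e-07). The size depends on the offset added before the logarithm, since the difference between the ends was 7.07 with no offset and 2.96 with the median signal as offset. Its weaker probe set changed by 1.02 along the trend with no call (adjusted p = 0.336), and with the mean of both probe sets the first step was 1.72 (adjusted p = 0.151).

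The remaining tested genes among the matricellular and other glycoproteins were not called by the trend. *matn4*, a matrilin, was called for a difference among positions (adjusted p = 0.0457), with 147 and 79.7 on the flank, 47.2 and 137 in the posterior PSM and 6.0 and 4.3 in the somites. That call depends on single arrays: it was lost in 8 of the 12 fits that leave out 1 array, with adjusted p up to 0.182. *sparc*, a collagen-binding glycoprotein also called osteonectin, measured 65.4 ± 2.97 (SD, n = 2) in the tailbud center, 157 ± 23.5 on its flank and 198 ± 88 in the somites (trend 0.53 ± 0.42 SE, adjusted p = 0.471). *thbs3a* (1.55), *spon1b* (0.96), *matn1* (0.08) and *spon2b* (-0.36) had trends that were not called. The members *spon1a*, *spon2a*, *thbs1b* and *vtnb* were below the filter.

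**Figure D3:**
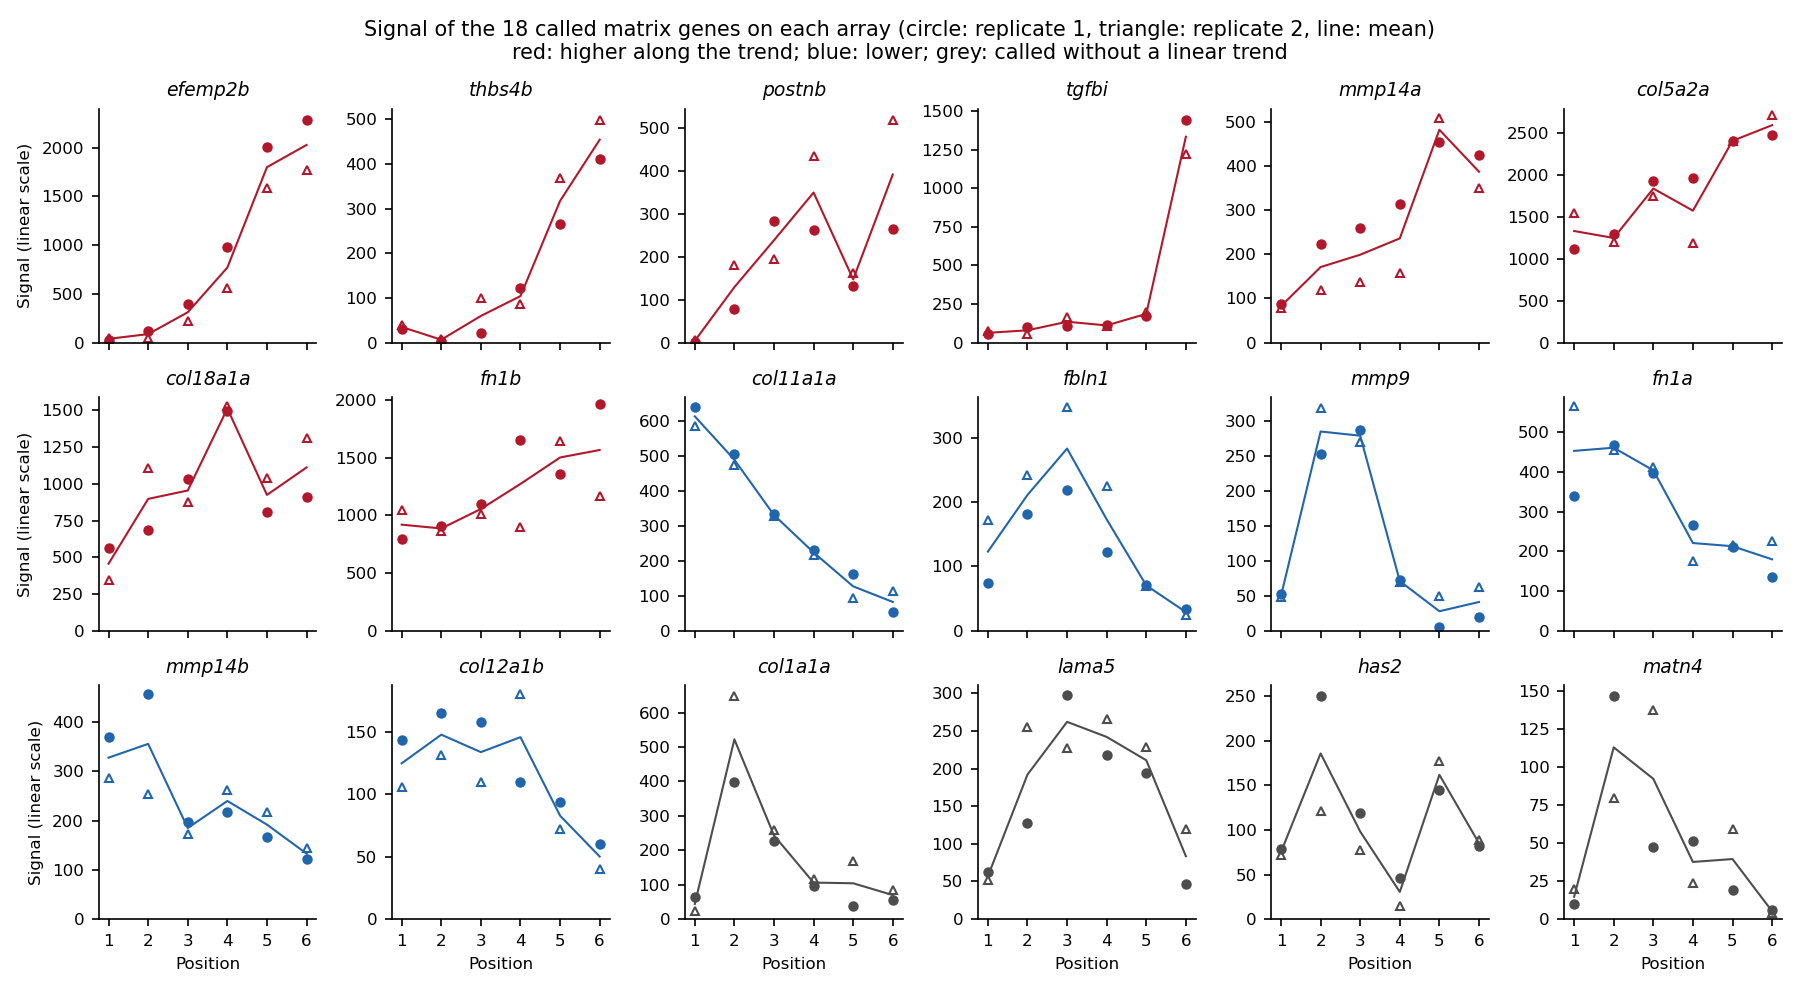
Signal on a linear scale (y axis from 0) against position for the 18 matrix genes called in at least 1 comparison, with replicate 1 as circles, replicate 2 as triangles and the mean as a line. *efemp2b* and *thbs4b* climb over several positions, *tgfbi* stands apart at position 6, *col11a1a* declines at each position, and *mmp9* is high at positions 2 and 3.

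Fibrillar collagens form the banded fibres of connective tissue, and the fibril-associated collagens coat them. Of 11 members 7 were tested, 1 rose and 2 fell along the trend (7.1% and 6.12% of all probe sets). *col11a1a* encodes a chain of type XI collagen, a minor component on which fibres start to form. It measured 639 and 586 at position 1, 504 and 474 at position 2 and 334 and 327 at position 3. The decline continued with 232 and 216 at position 4, 161 and 92.4 at position 5 and 52.5 and 113 at position 6. Both arrays of each position lay below both of the position before it up to the anterior PSM, and the somite values overlapped those of the anterior PSM. The fitted change was -2.89 ± 0.27 (SE, adjusted p = 3.26e-07), and none of the 5 steps was called. *col12a1b*, a fibril-associated type XII chain, had the trend call closest to the threshold. Its signal was 144 and 106 at position 1, 165 and 131 at position 2 and 158 and 110.2 at position 3, and then 110.4 and 181 at position 4, 94 and 71.9 at position 5 and 59.9 and 40.5 at position 6. The arrays of positions 1 to 4 overlapped one another and lay above those of position 6 and position 5. The trend was -1.12 ± 0.35 (SE, adjusted p = 0.04) and was lost in 8 of the 12 fits that leave out 1 array, where the adjusted p reached 0.186. The *col12a1b* trend was also not called under quantile normalization (-0.84, adjusted p = 0.163) or median centring (-0.76, adjusted p = 0.257). It was not called without the filter (adjusted p = 0.0531), without the intensity trend in the variances (adjusted p = 0.0519) or without position 2 (adjusted p = 0.0772). The trends closest to the threshold among those not called were those of *col28a2a* (1.71, adjusted p = 0.0512) and *mmp2* (-1.18, adjusted p = 0.0572).

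*col5a2a* encodes a type V chain, which in mammals limits the width of type I fibres. Its signal was 1116 and 1548 at position 1, 1298 and 1200.2 at position 2 and 1930.4 and 1747 at position 3. It measured 1961 and 1189 at position 4, 2406 and 2411 at position 5 and 2479.7 and 2712 at position 6. The 4 arrays of positions 5 and 6 lay above the 8 others, and the trend was 1.06 ± 0.19 (SE, adjusted p = 0.000567). A second, weaker probe set of *col5a2a* had a trend of 0.10 (adjusted p = 0.947), and the mean of both was not called (0.58, adjusted p = 0.2). Position 6 against position 1 (0.97 ± 0.22 SE, adjusted p = 0.00702) was not called without replicate 1 of position 1 (0.74, adjusted p = 0.106) or replicate 2 of position 6 (0.91, adjusted p = 0.0562).

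*col1a1a*, which encodes a chain of type I collagen, the main fibre collagen of skin and bone, was highest on the tailbud flank. It measured 64.7 and 22.8 at position 1, 397 and 648 at position 2 and 228 and 258 at position 3. It measured 95 and 117 at position 4, 38.8 and 168 at position 5 and 56 and 83.6 at position 6. Both flank arrays lay above all 10 others, and both posterior PSM arrays above the remaining 8. The step from the center of the tailbud to its flank was 3.32 ± 0.52 (SE, adjusted p = 0.00167), a 10-fold rise, and the difference among positions was called (adjusted p = 0.00144) while the trend was not (-0.75). Its other probe set had a first step of 2.02 that was not called (adjusted p = 0.126). The name of the probe set used here marks it as one that may match several transcripts. *col1a2*, which encodes the partner chain, measured 4.9 and 13.4 at position 1, 34.6 and 140.2 at position 2 and 156 and 81 at position 3, where its mean was highest. Its first step was 2.01 ± 0.62 (SE, adjusted p = 0.113) on this probe set and 2.69 (adjusted p = 0.032) on the other, which has the lower mean. *col2a1a*, the major collagen of the notochord sheath and cartilage, ran from 1.8 to 79.9 over the 12 arrays and was not called. *col14a1a* had its highest mean on the flank (123 ± 17) without a call (adjusted p = 0.103 for any difference). The members *col11a2*, *col9a1b*, *col9a2* and *col9a3* were below the filter.

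The flank pieces also had more signal of epidermal markers. The 17 epidermal markers found by symbol summed to 1358 to 2061 at position 1 and 5649 to 11195 at position 2. Their sums were 5502 to 9132 at position 3 and 8730 to 10092 at position 4. They were 4079 to 6706 at position 5 and 1204 to 3306 at position 6. Of the 14 that were tested, 7 rose at the first step (1.11% of all probe sets), among them the keratin *krt4*. The 5 sclerotome markers that no other list holds summed to 148 to 296 at position 1, 267 to 316 at position 2 and 214 to 260 at position 3. With *foxc1a*, also on the anterior PSM and somite list, the 6 summed to 572 to 870, 1046 to 1469 and 1338 to 1738, and of the 4 tested limma called 0 at that step (2 at an unadjusted p under 0.05). Of the sclerotome factors, *pax9* measured 29.5 and 56.3 at position 1 and 65.6 and 98.6 on the flank, and *pax1b* 44.2 and 66.8 and then 15.8 and 30.1. The 8 blood and endothelial markers summed to 397 to 488 at position 1, and to 480 on the left flank and 2650 on the right. The part of these tissues in the rise of *col1a1a* at the flank was not tested.

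**Figure D4:**
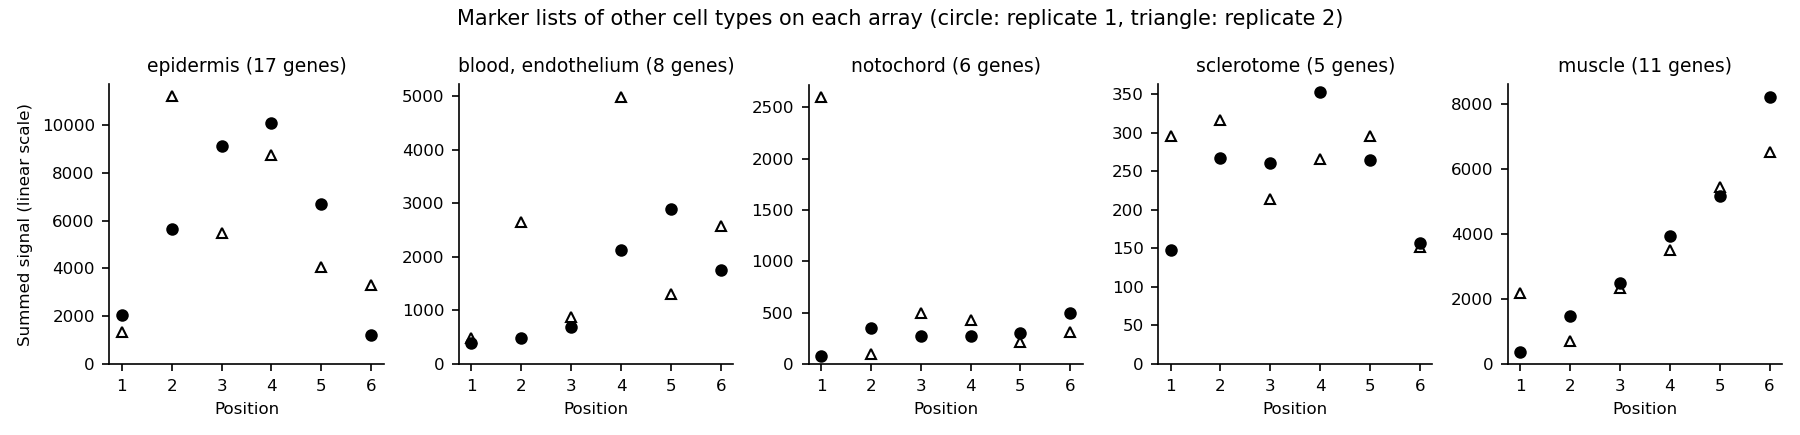
Summed signal on a linear scale (y axis from 0) of marker lists of epidermis, blood and endothelium, notochord, sclerotome and muscle against position, with replicate 1 as circles and replicate 2 as triangles. For notochord (6 genes) and sclerotome (5 genes), genes that another list also holds are left out. Epidermal markers are lowest at positions 1 and 6, notochord markers are high on replicate 2 of position 1 and not on replicate 1, and muscle markers are highest at position 6.

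Over all 45 tested genes, the first step had a median of 0.79, and 34 of the 45 changes were above 0, where the median of all probe sets was 0.05 and 53.0% were above 0. Of the 45 genes 3 were called there, *col1a1a*, *postnb* and *mmp9*, all higher on the flank, where 1.53% of all probe sets were called and 1.11% were higher. The call of *mmp9* was lost under quantile normalization, under median centring and with no offset. The array medians were 36.4 and 47.6 at position 1 and 68.4 and 57.6 at position 2. The median step depends on the scaling: it was 0.50 under quantile normalization (all probe sets -0.07), with 32 of 45 above 0, and 0.31 under median centring (all probe sets -0.43), with 25 of 45 above 0. It was 0.39 without replicate 1 of the tailbud center, and 0.46 without replicate 1 of the flank. At the steps from position 2 to 3, 3 to 4 and 4 to 5, limma called 0 matrix genes, with 7, 8 and 11 at an unadjusted p under 0.05, where 0.129%, 0.221% and 0.212% of all probe sets were called.

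Basement membranes are thin sheets built from laminins, which are trimers of an alpha, a beta and a gamma chain, together with type IV and type XVIII collagens and nidogens. Of 11 members 7 were tested, 1 rose and 0 fell along the trend with limma (7.1% and 6.12% of all probe sets). An unadjusted p under 0.05 was found for 3 of the 7. *col18a1a*, a type XVIII chain, measured 566 and 348 at position 1, 687 and 1108 at position 2 and 1032 and 878 at position 3. It measured 1494 and 1532 at position 4, 806 and 1043 at position 5 and 912 and 1313 at position 6. The tailbud center was lowest on both arrays and the center PSM highest on both. The trend was 1.04 ± 0.22 (SE, adjusted p = 0.00331), and position 6 against position 1 gave 1.28 ± 0.26 (SE, adjusted p = 0.00328). That direct difference was not called without replicate 2 of position 1 (0.94, adjusted p = 0.0598) or replicate 2 of position 6 (1.02, adjusted p = 0.0611).

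The laminin chains are described one by one, since differences between them were not tested. *lama5*, the alpha-5 chain, measured 62.5 and 51.3 at position 1, 127 and 256 at position 2 and 298 and 227 at position 3. It then measured 218 and 266 at position 4, 194 and 229 at position 5 and 47.2 and 119.8 at position 6. All 8 arrays of positions 2 to 5 lay above all 4 of the 2 ends, and the difference among positions was called (adjusted p = 0.00572) with a trend of 0.33 that was not. Under median centring the adjusted p was 0.06. The epidermal markers had the same order, with sums of 1204 to 3306 at the 2 ends and 4079 to 11195 at positions 2 to 5, and their part in the *lama5* difference was not tested. *lamb1a*, the beta-1 chain, which the zebrafish notochord needs to differentiate, stayed between 724 and 1185 on all 12 arrays. Its trend was 0.03 ± 0.18 (SE, adjusted p = 0.942), with a 95% interval of -0.35 to 0.42, so a change of more than 0.42 in either direction lies outside that interval. *lamc1*, the gamma-1 chain, had its highest mean in the posterior PSM (125 ± 31.7) and its lowest in the somites (24 ± 12.2), without a call (-1.31 ± 0.45 SE, adjusted p = 0.0638). *lama4* measured 16.9 ± 1.63 at position 1 and 86.3 ± 16.8 at position 6, also without a call (1.57 ± 0.54 SE, adjusted p = 0.0614). *col15a1a* measured 16.6 and 618 in the replicates of the tailbud center and no more than 50 on the other 10 arrays. That second array is also the one with high notochord markers (*noto* 53.3 and 1282, *ntd5* 2.3 and 713) and neural tube markers, and their part in this value was not tested. *lamb2l* was not called, and *col15a1b*, *lamb4*, *lamc3* and *nid1a* were below the filter.

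Of the 7 other collagens 4 were tested, *col28a2a*, *col28a1a*, *col6a3* and *col8a1a*. With limma 0 of them were called by the trend or among positions (13.2% and 11.2% of all probe sets). In each test 1 of the 4 had an unadjusted p under 0.05. *col28a2a* measured 13.2 ± 15.3 at position 1 and 96.2 ± 15.1 at position 4, its highest mean. *col6a3*, a chain of the beaded type VI collagen, measured 79 ± 17 on the flank and 28.3 ± 1.27 in the somites. The members *col10a1a*, *col10a1b* and *col17a1b* were below the filter.

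Hyaluronan is a long sugar chain made at the cell surface, to which proteoglycans and link proteins attach. Of the 7 genes of this group 3 were tested, and limma called 0 by the trend (0 also at an unadjusted p under 0.05). The trend was called for 13.2% of all probe sets. *has2*, the hyaluronan synthase, was called for a difference among positions (adjusted p = 0.0285). Its signal was 79.2 and 71.6 at position 1, 251 and 122 at position 2 and 119.5 and 77.2 at position 3. It measured 45.8 and 15.2 at position 4, 145 and 178 at position 5 and 81.9 and 88.6 at position 6. The center PSM was lowest on both arrays, and the flank and the anterior PSM had the highest means. The call was lost without replicate 2 of position 4 (adjusted p = 0.148), without replicate 1 of position 2 (adjusted p = 0.0543), and without either array of position 5 or 6 (adjusted p from 0.0592 to 0.0821). *hapln1a*, a link protein with 6 probe sets, measured 34 ± 18.5 at position 1 and 93.7 ± 9.62 at position 6 with no call (0.94 ± 0.67 SE, adjusted p = 0.418), and 2 of its other probe sets that were tested had trends of 0.55 and -0.33. *dcn*, decorin, had its highest mean in the posterior PSM (78.3 ± 2.33) and was not called. The proteoglycan genes *acanb*, *bgnb* and *vcanb* and the link protein gene *hapln2* were below the filter.

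The enzymes that modify collagen chains before and after secretion showed no called change. Of 6 members 4 were tested, and limma called 0 by the trend or among positions (0 and 1 at an unadjusted p under 0.05). These tests called 13.2% and 11.2% of all probe sets. *plod3*, a lysyl hydroxylase that also adds sugars to collagen, measured 614 ± 107 at position 1 and 444 ± 198 at position 6, with a 95% interval of the trend of -0.92 to 0.10. For *plod1a*, another lysyl hydroxylase, that interval was -0.51 to 0.56, and for the prolyl hydroxylase subunit gene *p4ha2* it was -0.08 to 1.01. *p4ha1b*, a second such subunit, had its highest signals in the somites, with 192 and 291 against 51.2 to 153.6 on the 10 other arrays, and was not called (position 6 against 1: 1.37 ± 0.46 SE, adjusted p = 0.0677). The lysyl oxidase genes *loxa* and *loxl2b*, whose products crosslink collagen and elastin, were below the filter.

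Among the proteases that cut matrix and their inhibitors, 7 of 9 members were tested. Along the trend 1 rose and 2 fell (7.1% and 6.12% of all probe sets). The membrane-bound metalloproteinase MMP14, which cuts collagen at the cell surface and activates MMP2, has the paralogs *mmp14a* and *mmp14b*, and these went opposite ways. *mmp14a* measured 87.2 and 77.7 at position 1, 222 and 119 at position 2 and 260.4 and 138 at position 3. It measured 314 and 158 at position 4, 455 and 508 at position 5 and 425 and 349 at position 6. Both tailbud center arrays were below all others, the 4 arrays of positions 5 and 6 were above all others, and the trend was 2.15 ± 0.31 (SE, adjusted p = 7.46e-05). Its weaker probe set had a trend of 1.05 with no call (adjusted p = 0.358). *mmp14b* measured 369 and 287 at position 1, 458 and 254 at position 2 and 198 and 172 at position 3. It then measured 218 and 261 at position 4, 166 and 217 at position 5 and 123 and 144 at position 6. The somite arrays were the 2 lowest of the 12, and the trend was -1.17 ± 0.27 (SE, adjusted p = 0.00517). Under median centring, which moves the median trend of all probe sets to 0.24, the *mmp14b* trend was -0.80 and not called (adjusted p = 0.108). Its direct difference between the ends was -1.22 ± 0.32 (SE, adjusted p = 0.017). This difference was not called under quantile normalization (-1.04, adjusted p = 0.0577) or median centring (-0.88, adjusted p = 0.184). It was also not called without the intensity trend in the variances (adjusted p = 0.0805). The same held without replicate 1 of position 1 (-1.04) or without either somite array (-1.11 and -1.33).

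*mmp9*, a secreted gelatinase, was high in 2 neighbouring positions. It measured 52.3 and 48 at position 1, 252 and 319 at position 2 and 287 and 271 at position 3. It measured 72.4 and 69.7 at position 4, 5.5 and 50.5 at position 5 and 19.9 and 62.5 at position 6. The 4 arrays of the flank and the posterior PSM lay above the 8 others with no overlap, and the difference among positions was called (adjusted p = 0.00118). The linear trend was -1.86 ± 0.47 (SE, adjusted p = 0.0111), while position 6 against position 1 was not called (-0.35 ± 0.56 SE, adjusted p = 0.804). The first step was 2.25 ± 0.56 (SE, adjusted p = 0.0477). It was not called under quantile normalization (2.10, adjusted p = 0.062), median centring (1.77, adjusted p = 0.0779) or with no offset (2.50, adjusted p = 0.153). The step was not called in any of the 8 fits without 1 array of positions 1 to 4 (adjusted p from 0.0649 to 0.213), and the trend was not called without replicate 1 of position 6 (-1.42, adjusted p = 0.113) or without position 2 (-1.20, adjusted p = 0.179). *mmp2*, which encodes the gelatinase that MMP14 activates, measured 87.3 ± 3.11 in the tailbud center, 160 ± 18.4 on its flank and 45.4 ± 10.2 in the somites with no call. *timp2a*, an inhibitor of metalloproteinases, measured 74.9 ± 56.9 in the tailbud center, 2.2 ± 0.566 at position 5 and 24.2 ± 6.15 at position 6, also with no call (-1.82 ± 0.62 SE, adjusted p = 0.0585). *mmp11b* and *mmp17b* were not called, and *mmp13a* and *timp2b* were below the filter.

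By position, the highest mean on the log2 scale fell at position 1 for 4 of the 45 tested genes (8.89%), at position 2 for 13 (28.9%), at position 3 for 10 (22.2%), at position 4 for 3 (6.67%), at position 5 for 4 (8.89%) and at position 6 for 11 (24.4%). Over all tested probe sets these shares were 17.7%, 22.8%, 13.2%, 16.4%, 12.6% and 17.2%. Of the 16 genes called for a difference among positions, 6 were highest on the flank and 5 in the somites, and *col11a1a* alone was highest in the tailbud center. The 23 genes below the filter had mean signals from 4.18 to 26.8 and reached 115.1 on 1 array; a signal this low does not show that a gene was not expressed. Muscle markers also moved along the axis. The sum of 11 genes was 375 and 2201 at position 1 and 8212 and 6520 at position 6. Of the 8 tested, 6 rose along the trend, where 7.1% of all probe sets rose. The 8 blood and endothelial markers summed to 2134 to 4983 at position 4, 1308 to 2891 at position 5 and 1760 to 2577 at position 6. All 8 were tested, and 5 rose along the trend (7.1% of all probe sets). The part of both tissues in the rising matrix genes was not tested.

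The somites (position 6) and the tailbud center (position 1) were also compared directly, without the flank. Of the 45 genes 11 were called, against 9.97% of all probe sets, and 7 of them were higher in the somites (5.41% of all probe sets) and 4 lower (4.56%). *efemp2b* differed by 5.36 ± 0.36 (SE, adjusted p = 5.07e-09), *tgfbi* by 4.17 ± 0.35 (SE, adjusted p = 1.19e-07), *thbs4b* by 3.31 ± 0.52 (SE, adjusted p = 0.000267) and *mmp14a* by 2.07 ± 0.37 (SE, adjusted p = 0.000868). *col11a1a* was lower by 6.94-fold (-2.80 ± 0.32 SE, adjusted p = 6.78e-06) and *fn1a* by 2.41-fold (-1.27 ± 0.31 SE, adjusted p = 0.0105). All 11 were also called by the trend and by the test among positions, where the call of *mmp14b* (adjusted p = 0.0446) was lost in 17 of the 23 alternatives, with adjusted p up to 0.203. Of the 4 lower genes, *col11a1a* was called without each array in turn, while *fn1a* was not called without replicate 2 of position 1 (-0.91, adjusted p = 0.153) or replicate 1 of position 6 (-0.92, adjusted p = 0.146).

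Genes that act on the matrix but are not part of it were taken from 3 lists. Their calls come from the main model alone, and other scalings or fits without 1 array were not examined for them. In the list of matrix receptors and their adaptors, 17 of 59 genes were found as the single symbol of a probe set. Probe sets with no symbol (4572) or with several (135) were not searched, so the other listed genes may still be on the array. Of the 17 genes 16 were tested, of which 3 rose and 1 fell, where 7.1% of all probe sets rose and 6.12% fell. The list's median trend was -0.15, against -0.13 over all probe sets. *dag1*, dystroglycan, a laminin receptor, measured 305 ± 36.9 at position 1 and 555 ± 68 at position 6 (0.76 ± 0.19 SE, adjusted p = 0.0112). *ptk2ab*, a focal adhesion kinase, measured 45.5 ± 3.32 and 299 ± 89.1 (2.50 ± 0.52 SE, adjusted p = 0.00264), and *src*, a kinase that acts with it, also rose (2.36 ± 0.60 SE, adjusted p = 0.0107). The integrin subunit gene *itgb5* fell from 191 ± 17.5 to 52.8 ± 5.94 (-1.69 ± 0.32 SE, adjusted p = 0.000989). *itga5*, the alpha chain of the fibronectin receptor, was not called (0.50 ± 0.53 SE, adjusted p = 0.62). *pxna* was called among positions (adjusted p = 0.0312), with 647 ± 144 on the flank and 237 ± 42.8 in the somites. Its trend was not called (-0.66 ± 0.24 SE, adjusted p = 0.0737).

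In the list for folding, secretion and processing of collagen, 27 of 49 genes were found by symbol. Of these 26 were tested, of which 4 rose and 5 fell (7.1% and 6.12% of all probe sets). The median trend was -0.47, against -0.13. *lman1*, a cargo receptor of the secretory pathway, rose from 39.2 ± 26.2 to 683 ± 46.4 (3.78 ± 0.41 SE, adjusted p = 2.06e-06). *fkbp10b*, a prolyl isomerase for collagen, measured 140 ± 10 in the tailbud center and 35.4 ± 3.04 in the somites (-1.58 ± 0.28 SE, adjusted p = 0.000574). *pdia4* and *pdia3*, protein disulfide isomerases, fell by 3.34 and 1.28. *kdelr3*, a receptor that returns chaperones to the endoplasmic reticulum, fell by 1.26 (adjusted p = 0.0443). Of its paralogs *kdelr2a* rose from 181 ± 66.7 to 570 ± 204 (0.93 ± 0.28 SE, adjusted p = 0.0345) and *kdelr2b* fell by 0.93. *kdelr2a* still measured 204 ± 32.7 in the anterior PSM, and its last step was called (1.40 ± 0.34 SE, adjusted p = 0.0469). The prolyl hydroxylation partner gene *crtap* rose by 0.66 (adjusted p = 0.0455) and the prolyl isomerase gene *ppib* by 0.54 (adjusted p = 0.0378). *serpinh1b*, the collagen chaperone HSP47, was called among positions (adjusted p = 0.00383), with 696 and 419.7 in the anterior PSM and between 879 and 2005 on the 10 other arrays.

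The list for glycosaminoglycan synthesis also holds genes that cut the chains or remove their sulfate. Of its 62 genes 29 were found by symbol and 24 were tested. With limma 0 rose and 5 fell (7.1% and 6.12% of all probe sets), and 10 of the 24 had an unadjusted p under 0.05. The median trend was -0.59, against -0.13. *sulf1*, which removes sulfate from heparan sulfate chains, fell from 1440 ± 276 to 327 ± 61.2 (-2.04 ± 0.26 SE, adjusted p = 1.19e-05). *papss2b*, which makes the sulfate donor, fell by 1.56 and *ext1a*, which polymerises heparan sulfate, by 1.33. *ndst2a*, which modifies heparan sulfate, fell by 1.02 and *cemip2*, a hyaluronidase, by 0.97 (adjusted p = 0.0423). *ugdh*, which makes the sugar precursor of hyaluronan and of heparan and chondroitin sulfate, was called among positions (adjusted p = 0.00478), with 292 ± 10.2 on the flank and 81.3 ± 5.09 in the somites.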

How the data were processed

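Transcripts of 12 samples were measured on the Affymetrix Zebrafish array, from amplified and biotin-labelled total RNA. The authors deposited intensities, 1 per probe set, made with MAS5 (per the submitters' processing notes, with no version). Each array's mean was 150 once the outer 2% on either side were trimmed. No detection calls were used. Of 15617 probe sets, 115 controls were left out. Genes were named from GEO's platform table; all 68 symbols are current in RefSeq's gene table. No genome position or sequence was used.

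Computed here were log2(signal + 12.2), with the 25th percentile of all signals as offset, a filter at the 30th percentile of the mean log2 value (10851 probe sets kept) and a linear model of 6 position means in limma 3.58.1 (R 4.3.3), with variances that follow intensity (6 residual and 12.8 prior degrees of freedom). Tests were two-sided, with Benjamini-Hochberg adjustment over all probe sets within each comparison. The procedure was tested on simulated data whose spread followed intensity as the model assumes, so that assumption was not tested. Each mean rests on 2 arrays, which limits the precision. Genes are named if called in any comparison, as the member of highest mean in a group, as a called gene's paralog or beside the threshold; others were named after their values were seen. Listed genes are the called ones, at most 6 a list by trend; *serpinh1b*, *kdelr2a*, *kdelr2b*, *crtap*, *ppib*, *itga5* and the marker genes named were chosen after their values were seen. Members, lists and rule were chosen with earlier results of these data known. The alternatives were other scalings, offsets, filters and variances, a replicate block, no position 2, a mean over probe sets and each array left out; leaving out the 3 arrays with the highest medians was added after seeing the data.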

Additional observations from a re-analysis of the deposited data

How the results depend on the processing

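No called change of a named matrix gene reversed its sign under any of the 23 alternatives, and 7 of the 14 genes called by the trend were called in all of them (*col11a1a*, *efemp2b*, *fbln1*, *mmp14a*, *postnb*, *tgfbi*, *thbs4b*). Without the intensity trend in the variances, the test among positions called 7 matrix genes in place of 16 (419 in place of 1210 of all probe sets, and 839 in place of 1434 by the trend), position 6 against 1 called 1 lower in place of 4, and limma called 0 at any step in place of 4 (27 at an unadjusted p under 0.05). Position 6 against 1 called 2 lower under quantile normalization, 1 lower and 11 higher (in place of 7) under median centring, and 2 lower with the mean over probe sets; the cause was not tested. The split of trend calls, 8 higher and 6 lower, was 10 and 5 under quantile normalization and 11 and 4 under median centring. Leaving out 1 array leaves its partner alone, whose spread is then taken from the other positions. The counts then ran from 13 to 18 among positions, 7 to 9 higher and 4 to 7 lower by the trend, 6 to 8 higher and 1 to 4 lower between the ends, and 3 to 8 at any step, with 8 without replicate 1 of position 2. The lower count between the ends was 2 without replicate 2 of position 1, 1 without replicate 1 of position 6 and 2 without its replicate 2. Without the 3 arrays of highest median signal, 13 were called among positions, and 774 of all probe sets. Differences between replicates 1 and 2 were hardly correlated between positions (-0.071 to 0.085 over 15 pairs of positions), which does not exclude pairing by replicate number. With the replicate block 16 were called among positions, and 8 higher and 6 lower by the trend. Between the ends 7 were called higher and 4 lower with the block, and 5 at any step. Signals near the offset have little precision, so a missing call of a weak probe set does not show that its gene did not change.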
